A study of Rattus norvegicus with 12 samples.

Results

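The extracellular matrix genes described here are 96 genes of the 10411 that the array annotation pairs with a single symbol. They were taken by symbol: laminin chains (Lama, Lamb, Lamc), integrins (Itga, Itgb), collagens (Col), the proteases of the Adam, Adamts and Mmp families, the protease inhibitors of the Timp family, thrombospondins (Thbs), and fibronectin (Fn1), matrix Gla protein (Mgp), Sparc, tenascin C (Tnc), versican (Vcan), brevican (Bcan) and neurocan (Ncan). The rule uses symbols and no measured value, but it was set with earlier results of these data known. The 96 genes were covered by 133 probe sets, 66 of them by 1 probe set and 30 by several, and each gene was read at the probe set with the highest mean over the 12 arrays. The symbol prefixes also took in Itgb1bp1, Itgb1bp2 and Itgb3bp, which encode integrin-binding proteins and not integrins, and Adamtsl4, an ADAMTS-like protein. All 96 genes were found in the RefSeq annotation by gene identifier.

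Cells lie in a meshwork of collagens, laminins, fibronectin and proteoglycans that they secrete themselves, and integrins, each a pair of an alpha and a beta chain, anchor the cell to it and signal inward. Metalloproteases of the MMP, ADAM and ADAMTS families cut matrix and membrane proteins, and TIMPs inhibit them. In brain tissue, matrix proteases and their inhibitors are known for their response to neuronal activity, and the proteoglycans of the lectican family form the matrix around neurons.

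The cultures came from ventral midbrain of E12 embryos of CD1 rats and were grown on poly-D-lysine without serum. They received bFGF at 20 ng/ml and SHH at 50 ng/ml for 6 days and neither factor for 3 more days. On day 9 the depolarized cultures were kept for 2 h in 56 mM KCl, a potassium level that depolarizes neurons and other excitable cells, and were collected 30 min or 2 h after its end, while the control cultures spent the same times in control medium. The 4 groups were depolarized 30 min, control 30 min, depolarized 2 h and control 2 h, with 3 arrays each. Replicates 1 to 3 belong to the 30 min groups and replicates 4 to 6 to the 2 h groups. The embryos, taken from 4 pregnant rats, were combined and divided into 3 sets treated apart from each other, and each RNA sample pools duplicate cultures, so the spread between arrays is that between pooled cultures and not between animals. The labels do not say whether both collection times came from the same cell preparation.

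Levels are the authors' log2 values, which ran from 4.41 to 14.58, and a difference of 1 on this scale is 2-fold. Over all probe sets the correlation was 0.9957 to 0.9979 between arrays within a group and 0.9717 to 0.9922 between groups. The activity marker Fos lay at 11.05 ± 0.18 in depolarized and 6.99 ± 0.04 in control cultures at 30 min (SD, n = 3 each), and at 10.37 ± 0.05 in depolarized and 6.98 ± 0.09 in control cultures at 2 h. Markers of neurons and of astrocytes and radial glia were measured, at 10.31 to 11.48 and 10.60 to 10.80 as means over 10 genes each per array. Markers of endothelium (9 genes, 6.67 to 6.99) and microglia (10 genes, 6.80 to 7.17) lay lower in the range of the array, where signal and background cannot be told apart without detection calls, which were not used here. A gene was called where the limma test passed a Benjamini-Hochberg adjusted p of 0.05 over all 15866 probe sets. In such mixed cultures, fewer cells of a type and less RNA per cell cannot be told apart.

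At 30 min, 10 of the 96 matrix genes differed between depolarized and control cultures, 7 higher and 3 lower. That is 10.4%, against 24.0% of all probe sets called. At 2 h, 16 genes differed, 13 higher and 3 lower, which is 16.7% against 25.2% of all probe sets. The arrays did not overlap for 18 of the 96 genes at 30 min and 29 at 2 h, beside 36.8% and 37.5% of all probe sets. By direction, 7.29% of the matrix genes were higher at 30 min against 10.8% of all probe sets, and 3.12% lower against 13.1%, while 13.5% of the matrix genes were higher at 2 h against 9.51% of all probe sets, and 3.12% were lower against 15.7%. The median difference of the 96 genes was 0.02 at 30 min and 0.06 at 2 h, beside 0.01 and -0.00 over all probe sets. With the medians of the arrays set equal, the calls over all probe sets split 2339 higher and 1631 lower at 30 min, in place of 1720 and 2085, and 2014 higher and 1903 lower at 2 h, in place of 1509 and 2492. Among the matrix genes the same centring gave 8 higher and 3 lower at 30 min, and 17 higher and 3 lower at 2 h.

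Adam17, Adamts1 and Timp1 were higher in depolarized cultures at both times. Adam22 was higher at 30 min and lower at 2 h, 6 genes were called at 30 min alone and 12 at 2 h alone, and 74 passed at neither time. A call at 1 time alone does not show that the response differed between the times: of these 18 genes, 6 passed the test of that difference (Mgp, Col5a3, Timp3, Mmp11, Adam19 and Lama1). A change of at least 2-fold was reached at 30 min by Adamts1, and at 2 h by Adamts1, Timp1 and Mgp.

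**Figure D1:**
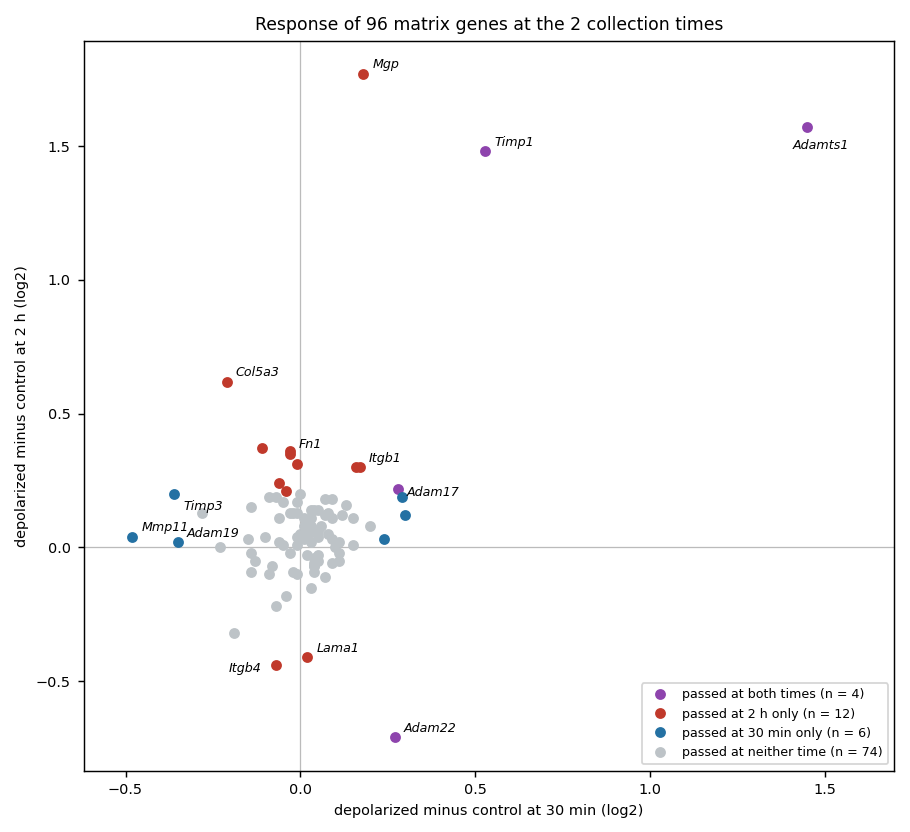
Each point is 1 of the 96 matrix genes, with the log2 difference depolarized minus control at 30 min on the horizontal axis and at 2 h on the vertical axis. Adamts1 lies far out on both axes (1.45 and 1.57), Mgp on the vertical axis alone (0.18 and 1.77), and the 74 grey genes passed at neither time. Unlabelled coloured points are Tnc, Itga6, Itga7, Lamc1, Adamts9 and Col7a1, called at 2 h, and Adam1a, Itga2b and Itgb1bp2, called at 30 min.

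Adamts1 encodes a secreted protease that cuts the lecticans. At 30 min its level was 8.99, 9.35 and 8.89 in depolarized cultures, against 7.82, 7.55 and 7.48 in controls. At 2 h it was 9.17, 8.61 and 8.87 in depolarized cultures, against 7.45, 7.24 and 7.25 in controls. Every depolarized array thus lay above every control array of its time, by more than 1 log2 unit. The rise was 2.74-fold at 30 min (log2 difference 1.45, SE 0.14, adjusted p = 9.17e-07 by limma) and 2.96-fold at 2 h (1.57, SE 0.14, adjusted p = 1.36e-06), and the difference between these responses was 0.11 (95% interval -0.30 to 0.52). Of the other 3 ADAMTS genes, Adamts9, also a protease of lecticans, rose at 2 h (0.36, SE 0.09, adjusted p = 0.00738 by limma), with 8.70, 8.60 and 8.83 in depolarized against 8.19, 8.46 and 8.39 in control cultures. Adamts7 and Adamtsl4 passed at neither time.

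Timp1 encodes a secreted inhibitor of matrix metalloproteases. Its level at 30 min was 9.82, 9.83 and 9.69 in depolarized cultures, against 9.27, 9.24 and 9.23 in controls. At 2 h the depolarized arrays read 10.33, 9.57 and 10.05, against 8.50, 8.62 and 8.39 in controls. The groups did not overlap at either time, and the gap was wider at 2 h, where the controls were lower than at 30 min and the depolarized arrays were more spread. The difference was 0.53 at 30 min (SE 0.13, adjusted p = 0.00626 by limma) and 1.48 at 2 h (SE 0.13, adjusted p = 1.65e-06), and the response at 2 h exceeded that at 30 min by 0.95 (SE 0.19, adjusted p = 0.0027).

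The 250 bases before the annotated start of these 2 genes are shown because they have the widest rises among the matrix genes that were higher at both times. They are given 5′ to 3′ on the strand of the gene, from RefSeq on build GRCr8: Adamts1 at chr11:38427385-38427634 and Timp1 at chrX:3771123-3771372, both on the minus strand. Letters of 3 motifs were searched on both strands, TGANTCA (AP-1, the site of Fos and Jun proteins), TGACGTCA (cyclic AMP response element) and GCGNGGGCG (EGR proteins). None of the 3 occurs in either window, which says only that these letters are not there.
Adamts1: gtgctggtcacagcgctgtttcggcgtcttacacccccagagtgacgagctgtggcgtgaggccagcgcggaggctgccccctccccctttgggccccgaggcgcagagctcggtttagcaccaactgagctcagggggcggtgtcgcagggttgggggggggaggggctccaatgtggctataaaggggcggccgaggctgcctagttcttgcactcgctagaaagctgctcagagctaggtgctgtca
Timp1: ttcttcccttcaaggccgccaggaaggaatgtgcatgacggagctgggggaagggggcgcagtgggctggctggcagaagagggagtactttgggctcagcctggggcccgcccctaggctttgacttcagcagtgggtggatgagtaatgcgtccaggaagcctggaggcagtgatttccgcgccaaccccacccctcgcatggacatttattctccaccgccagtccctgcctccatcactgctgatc

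The other inhibitors did not follow Timp1. Timp3, which binds to the matrix itself, was at 11.17, 10.93 and 10.92 in depolarized cultures at 30 min, against 11.31, 11.37 and 11.41 in controls, a fall without overlap (-0.36, SE 0.07, adjusted p = 0.00173 by limma). At 2 h it was at 11.46, 11.33 and 11.46 in depolarized cultures, against 11.29, 11.20 and 11.16 in controls, a difference of 0.20 that did not pass (adjusted p = 0.0623). The direction thus turned between the times, and the response at 2 h minus that at 30 min was 0.56 (SE 0.10, adjusted p = 0.00203). All 4 probe sets of Timp3 passed for that difference between responses, between 0.56 and 0.66. Of the 4, 3 fell at 30 min and the 2 dimmest rose at 2 h (0.45 and 0.30). Timp2 passed at neither time, with differences of -0.10 at 30 min and 0.04 at 2 h.

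**Figure D2:**
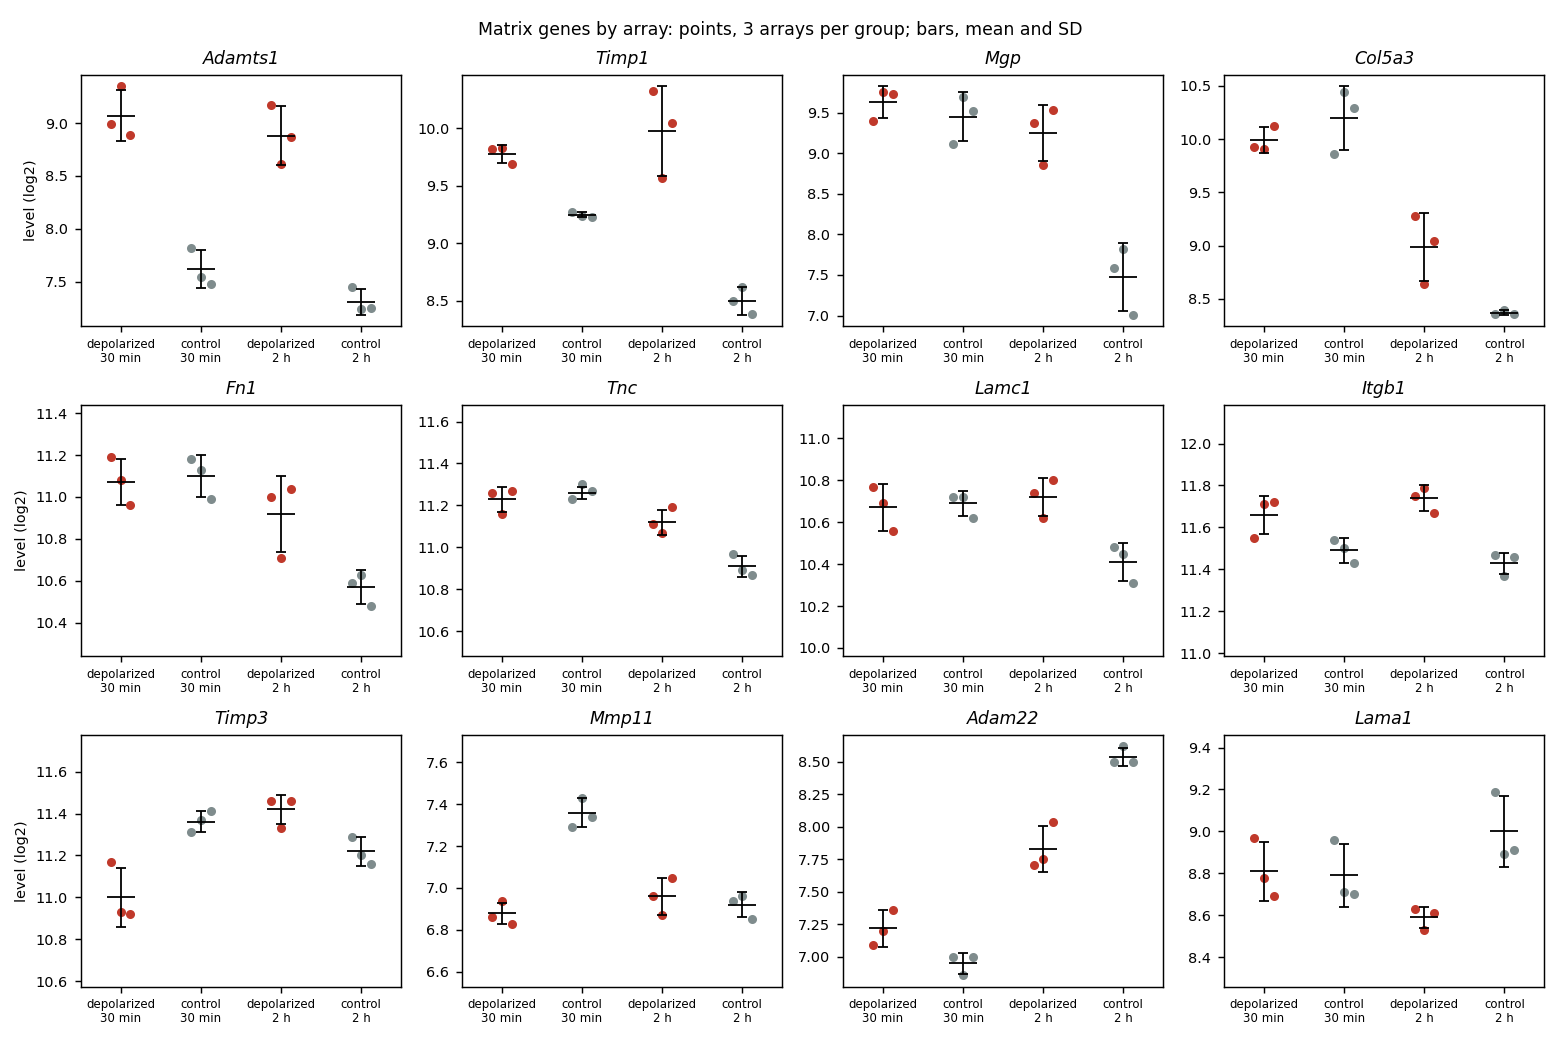
Log2 level of 12 matrix genes on each array, with depolarized arrays in red and control arrays in grey for each collection time, and black bars for the group mean and SD of 3 arrays. Adamts1 and Timp1 separate the red from the grey points at both times, Mgp, Col5a3, Fn1, Tnc and Lamc1 at 2 h, and Timp3 and Mmp11 lie lower in red at 30 min. The vertical axes differ between panels.

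Few matrix metalloproteases were called, beside 24.0% of all probe sets at 30 min and 25.2% at 2 h. Of the 14 MMP genes, 0 were higher at 30 min and 1 was lower, and at 2 h 0 passed in either direction by limma, with 3 at an unadjusted p under 0.05. A dimmer probe set of Mmp24, which was not the one read, fell at 2 h (-0.24, adjusted p = 0.0126). The gene that fell was Mmp11 (stromelysin 3), at 6.86, 6.94 and 6.83 in depolarized against 7.29, 7.43 and 7.34 in control cultures at 30 min (-0.48, SE 0.07, adjusted p = 5.06e-05). At 2 h Mmp11 differed by 0.04 (SE 0.07), with 6.96, 6.87 and 7.05 in depolarized and 6.94, 6.96 and 6.85 in control cultures. The control arrays alone were high at 30 min, and the 9 others lay together below them. Mmp2, a gelatinase, differed by 0.20 at 2 h (95% interval 0.01 to 0.39, adjusted p = 0.121), and its activator Mmp14 by 0.11 (-0.09 to 0.31). Mmp9, the other gelatinase, read 6.64, 6.29 and 6.19 in depolarized against 6.22, 6.11 and 6.19 in control cultures at 30 min, where it did not pass (0.20, adjusted p = 0.161). Its groups overlapped, and the value of 6.64 stands apart from the other 11 arrays. Mmp9 and 6 other MMP genes were among the 20 matrix genes in the dimmest 25% of probe sets, where a small change would be hard to see.

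Motif letters were also counted over the other genes. An entry in the promoter table was found for 70 of the 96 genes. AP-1 letters were present for 8 of these 70 (11.4%) and for 6.99% of 27457 genes. The 8 were Mmp3, Mmp7, Mmp10, Mmp12, Mmp13, Lama3, Col6a1 and Adam19. Of them Adam19 alone was called, and it was lower at 30 min. EGR letters were present for 9 of the 70 (12.9%), against 4.79% of all genes, and Col5a3, Itgb1 and Mmp11 among them were called at 1 time each. Over all probe sets, 24.0% were called at 30 min and 25.2% at 2 h. A link between motif letters and calls was not tested. The cyclic AMP response element was present for 0 of the 70 and for 1.78% of all genes. Mmp3 and Mmp13 are shown as genes with AP-1 letters near the start whose transcripts stayed at the dim end of the array. Mmp3 differed by 0.02 at 30 min and 0.07 at 2 h, and Mmp13 by 0.00 and 0.05, none of which passed. Col5a3 is shown with its EGR letters as the gene of this kind with the widest difference between depolarized and control cultures at 2 h (0.62). In depolarized and control cultures alike, Col5a3 was lower at 2 h than at 30 min. Capitals mark the motif, and the windows are from RefSeq on build GRCr8: Mmp3 at chr8:12925031-12925280 and Mmp13 at chr8:12782579-12782828, both on the plus strand, and Col5a3 at chr8:27625949-27626198 on the minus strand.
Mmp3: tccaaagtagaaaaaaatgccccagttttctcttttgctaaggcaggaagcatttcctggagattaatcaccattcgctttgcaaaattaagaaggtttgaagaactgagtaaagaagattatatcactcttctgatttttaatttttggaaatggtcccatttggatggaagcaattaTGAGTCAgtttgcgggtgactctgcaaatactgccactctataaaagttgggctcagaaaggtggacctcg
Mmp13: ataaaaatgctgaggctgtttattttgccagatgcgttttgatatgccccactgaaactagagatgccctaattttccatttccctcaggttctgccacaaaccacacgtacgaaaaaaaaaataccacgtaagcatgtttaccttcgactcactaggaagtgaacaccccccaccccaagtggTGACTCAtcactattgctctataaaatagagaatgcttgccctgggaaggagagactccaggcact
Col5a3: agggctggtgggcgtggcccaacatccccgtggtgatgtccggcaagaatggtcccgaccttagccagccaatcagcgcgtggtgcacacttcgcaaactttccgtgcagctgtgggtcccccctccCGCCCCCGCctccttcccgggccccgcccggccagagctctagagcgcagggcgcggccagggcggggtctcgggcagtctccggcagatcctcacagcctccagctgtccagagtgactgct

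Among the 14 ADAM genes, which encode membrane-bound proteases and protease-like adhesion proteins, 3 were higher and 1 lower at 30 min, and 1 was higher and 1 lower at 2 h. The 30 min count is near the 24.0% of all probe sets called, and the 2 h count is below their 25.2%. Adam17, the sheddase that releases tumour necrosis factor and ligands of the epidermal growth factor receptor, was at 10.11, 9.94 and 10.05 in depolarized against 9.77, 9.77 and 9.71 in control cultures at 30 min, and at 9.72, 9.64 and 9.75 in depolarized against 9.55, 9.50 and 9.39 in control cultures at 2 h. The groups were apart at both times, by a small margin. The differences were 0.28 (SE 0.07, adjusted p = 0.00476 by limma) and 0.22 (SE 0.07, adjusted p = 0.0235), and that at 2 h no longer passed without depolarized replicate 4 (0.0747), depolarized replicate 6 (0.0768) or control replicate 6 (0.0847). Adam10, its closest relative, differed by 0.09 and 0.18 and passed at neither time.

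Adam22, a synaptic adhesion protein without protease activity, read 7.09, 7.20 and 7.36 in depolarized against 7.0, 6.86 and 7.0 in control cultures at 30 min. At 2 h it read 7.71, 7.75 and 8.04 in depolarized against 8.50, 8.62 and 8.50 in control cultures. Both 2 h groups stood above both 30 min groups, and the depolarized cultures lay above their controls at 30 min and below them at 2 h. The difference of 0.27 at 30 min (adjusted p = 0.044 by limma) was lost when any of 5 arrays was left out, with adjusted p of up to 0.191, and after quantile (0.0774) or loess (0.0732) normalization. The fall at 2 h (-0.71, SE 0.09, adjusted p = 4.41e-05) and the difference between responses (-0.97, SE 0.13, adjusted p = 0.00011) passed without each array, with adjusted p of at most 0.000527 and 0.000635. A dimmer Adam22 probe set did not pass at either time (0.23 and -0.09), so the turn rests on 1 of 2 probe sets. The probe sets also went opposite ways in depolarized 2 h against depolarized 30 min cultures (0.62 and -0.30, both called, and 0.16 with adjusted p = 0.119 for their mean), so the direction of Adam22 over time is uncertain. Adam19 fell at 30 min, with 8.78, 8.85 and 8.74 in depolarized against 9.18, 9.16 and 9.09 in control cultures (-0.35, SE 0.07, adjusted p = 0.000697), and differed by 0.02 at 2 h. Its other probe set, far dimmer, differed by -0.00 at 30 min. Adam1a was higher at 30 min (0.24, adjusted p = 0.0409), and that call was lost without any of 4 arrays.

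Of the 4 glycoproteins, Fn1, Mgp and Tnc rose at 2 h, beside 9.51% of all probe sets, and Sparc did not pass (0.02, 95% interval -0.13 to 0.18). At 30 min, limma called 0 of the 4, and 0 had an unadjusted p under 0.05. Mgp, an inhibitor of calcification made by vascular and other mesenchymal cells, had the widest difference of the 96 genes at 2 h, with 9.37, 8.85 and 9.53 in depolarized against 7.59, 7.82 and 7.01 in control cultures. At 30 min it was at 9.40, 9.76 and 9.73 in depolarized against 9.11, 9.70 and 9.52 in control cultures. The depolarized arrays at 2 h fell inside the range spanned by the 30 min arrays or just below it, and the 2 h controls were more than 1 log2 unit below all the other groups. The difference at 2 h was 1.77 (SE 0.20, 3.42-fold, adjusted p = 1.47e-05 by limma), and the response exceeded that at 30 min by 1.59 (SE 0.28, adjusted p = 0.00125).

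Fibronectin, the main adhesive ligand of integrins, was at 11.0, 10.71 and 11.04 in depolarized against 10.59, 10.63 and 10.48 in control cultures at 2 h (0.35, SE 0.09, adjusted p = 0.00989 by limma). Tenascin C, a glycoprotein of astrocytes and progenitor cells, was at 11.11, 11.07 and 11.19 in depolarized against 10.97, 10.89 and 10.87 in control cultures (0.21, SE 0.06, adjusted p = 0.0182). The groups did not overlap for either gene. Neither call held throughout: for Fn1 the adjusted p reached 0.0508 without depolarized replicate 4 and 0.0507 without depolarized replicate 6, and for Tnc it reached 0.0721, 0.0596 and 0.0505 without depolarized replicate 6, control replicate 5 and control replicate 6.

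Laminins are the trimers at the core of basement membranes. Of the 8 chains, Lamc1 and Lama1 were called at 2 h, near the 25.2% of all probe sets called. Lamc1, the gamma chain shared by most laminins, was at 10.74, 10.62 and 10.80 in depolarized against 10.48, 10.45 and 10.31 in control cultures (0.31, SE 0.07, adjusted p = 0.0061 by limma), and its second probe set rose by 0.54, by more than at 30 min (0.70, adjusted p = 0.00274). Lama1, an alpha chain of early embryonic basement membranes, was at 8.63, 8.53 and 8.61 in depolarized against 9.19, 8.89 and 8.91 in control cultures (-0.41, SE 0.09, adjusted p = 0.0047). Lamc1 was thus higher and Lama1 lower in depolarized cultures with no overlap, while the other 6 chains passed at neither time, Lamb1 among them (0.13 at 2 h). At 30 min, limma called 0 of the 8 laminins, and 0 had an unadjusted p under 0.05.

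Few collagens were called, beside 24.0% of all probe sets at 30 min and 25.2% at 2 h. At 30 min limma called 0 of 4 basement membrane, 0 of 10 fibrillar and 0 of 15 other collagen genes, with 0 in each at an unadjusted p under 0.05, and at 2 h Col5a3 and Col7a1 rose. The collagens counted here as basement membrane collagens, the Col4 genes alone, passed in none of the 5 comparisons. Col4a1 differed by -0.05 at 30 min and 0.01 at 2 h. Col15a1 and Col18a1, counted with the other collagens, were lower in 2 h than in 30 min controls (-0.42 and -0.44, adjusted p = 0.00278 and 0.0119 by limma). The call of Col18a1 was lost without control 2 h replicate 4 (0.0541). Col5a3, a chain of type V collagen, was at 9.28, 8.64 and 9.04 in depolarized against 8.36, 8.39 and 8.36 in control cultures at 2 h (0.62, SE 0.14, adjusted p = 0.00501). At 30 min it was at 9.93, 9.91 and 10.12 in depolarized against 9.86, 10.44 and 10.29 in control cultures. Both groups were thus lower at 2 h than at 30 min, and the depolarized one less so: the response at 2 h exceeded that at 30 min by 0.83 (SE 0.20, adjusted p = 0.0126). Col7a1, the anchoring fibril collagen, rose by 0.30 (adjusted p = 0.0256), a call lost without depolarized replicate 6 (0.124) or control replicate 5 (0.116).

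One array decided the collagen count at 30 min. Col1a1, a chain of the main fibrillar collagen, was at 12.67, 12.13 and 12.10 in depolarized against 12.55, 12.51 and 12.53 in control cultures, and Col4a2 was at 11.84, 11.33 and 11.23 in depolarized against 11.52, 11.63 and 11.66 in control cultures. In both, depolarized replicate 1 lay above all 3 controls and the other 2 depolarized arrays below them. Without that array, 9 matrix genes in place of 3 were lower at 30 min, and the 6 added were Col1a1, Col1a2, Col3a1, Col4a2, Col6a2 and Col18a1. Weighting arrays by their quality gave 8 lower genes, adding Col1a1, Col4a2, Col6a2, Mmp24 and Ncan. The weighting is limma's own, and no label sets replicate 1 apart.

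Of 9 integrin alpha genes 1 was higher at 30 min and 2 at 2 h, and of 7 beta and beta-binding genes 1 was higher at 30 min, and 1 higher and 1 lower at 2 h. Both 30 min counts are below the 24.0% of all probe sets called, and both 2 h counts are near their 25.2%. Itgb1, the beta chain of most matrix receptors, was at 11.75, 11.79 and 11.67 in depolarized against 11.47, 11.37 and 11.46 in control cultures (0.30, SE 0.07, adjusted p = 0.00303 by limma), and its second probe set rose by 0.59 (adjusted p = 0.000193). The 30 min groups did not overlap either, with 11.55, 11.71 and 11.72 in depolarized against 11.54, 11.50 and 11.43 in control cultures, but the difference of 0.17 did not pass (adjusted p = 0.0743). Both Itgb1 probe sets therefore rose at 2 h without passing at 30 min, and the difference between the times did not pass for either (adjusted p = 0.435 and 0.0597). The laminin-binding chains Itga6 and Itga7 rose at 2 h by 0.37 (adjusted p = 0.0281) and 0.24 (0.0305). Each was lost without some single arrays, 5 for Itga6 and 4 for Itga7, and their other probe sets did not pass (0.16 for Itga6, 0.10 and 0.01 for Itga7).

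Itgb4, the partner of Itga6 in the laminin receptor of epithelia, fell at 2 h (-0.44, SE 0.12, adjusted p = 0.0156 by limma), with 8.57, 9.11 and 8.89 in depolarized against 9.26, 9.34 and 9.27 in control cultures. That call was lost without depolarized replicate 4 (0.0933) or control replicate 5 (0.0592). Itga2b, known as the platelet integrin chain, was higher at 30 min, with 7.60, 7.71 and 7.61 in depolarized against 7.32, 7.40 and 7.33 in control cultures (0.29, SE 0.07, adjusted p = 0.00624). Itgb1bp2 (melusin), which binds the tail of the beta 1 chain and is known from muscle, rose by 0.30 at 30 min (SE 0.06, adjusted p = 0.00191) at a level of 6.27 to 6.42 in depolarized against 5.98 to 6.07 in control cultures, in the dimmest 25% of probe sets. The lecticans Vcan, Bcan and Ncan passed at neither time by limma. Ncan differed by -0.28 at 30 min, where 1 control array at 8.96 stood above the other 5 (8.18 to 8.41), and was the 1 lectican with an unadjusted p under 0.05 at 30 min. The thrombospondin Thbs4 passed at neither time either (0.04 and 0.14).

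**Figure D3:**
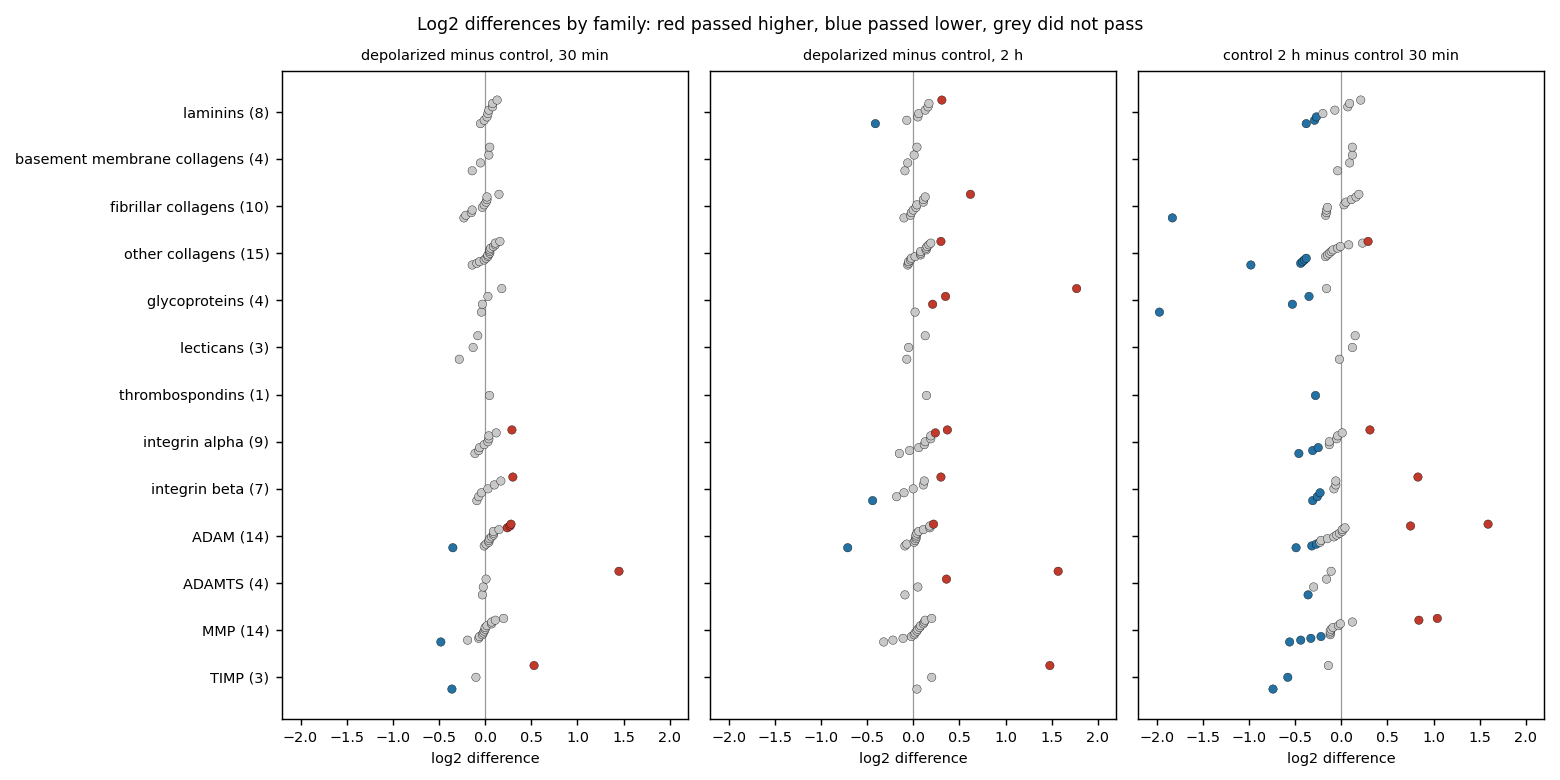
Log2 differences of the 96 matrix genes by family for depolarized minus control at 30 min (left), the same at 2 h (middle) and control 2 h minus control 30 min (right), with red for genes called higher, blue for lower and grey for those that did not pass. At 2 h red points lie in 9 of the 13 families. In the right panel 29 genes are blue and 7 red.

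For 8 genes the response differed between the collection times, 8.33% against 13.0% of all probe sets. The response was higher at 2 h for 6 and lower for 2, where 6.16% of all probe sets were higher and 6.79% lower. The response at 2 h exceeded that at 30 min for Mgp, Timp1, Col5a3, Timp3, Mmp11 and Adam19, and fell below it for Adam22 and Lama1. These include 2 kinds of genes. Timp3, Mmp11 and Adam19 were lower in depolarized cultures at 30 min and passed in neither direction at 2 h, whereas Mgp and Col5a3 were higher at 2 h and did not pass at 30 min. The count of 6 became 13 without depolarized 30 min replicate 1 and 10 without depolarized 2 h replicate 5.

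The control cultures themselves differed by collection time. Of the 96 genes, 36 differed between control cultures at 2 h and at 30 min, 7 higher and 29 lower, or 37.5% against 35.3% of all probe sets. The lower share was 30.2%, against 17.2% of all probe sets, the higher share 7.29%, against 18.1%, and the median difference was -0.12, against -0.04. The difference, 2 h minus 30 min controls, was -1.97 for Mgp, -1.83 for Col5a3, -0.98 for Col8a2, -0.74 for Timp1, -0.58 for Timp2, -0.56 for Mmp2 and -0.53 for Fn1. The arrays did not overlap for 51 of the 96 genes, beside 49.5% of all probe sets. Adam22 (1.59), Mmp24 (1.04), Mmp17 (0.84), Itgb4 (0.83), Adam23 (0.75), Itga3 (0.31) and Col7a1 (0.29) were higher in them. Mmp24, a membrane-type metalloprotease of neurons, had a second probe set that was lower (-0.19), so its direction is uncertain. The responses at 2 h and this comparison share the 2 h control arrays, so their values are given side by side only.

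Of the 13 genes higher in depolarized cultures at 2 h, 9 were lower in 2 h than in 30 min controls (Adam17, Adamts9, Timp1, Col5a3, Fn1, Mgp, Tnc, Itga6 and Lamc1), 1 was higher (Col7a1), and Adamts1, Itga7 and Itgb1 did not pass. Over all probe sets 17.2% were lower between controls. Low values on the shared 2 h control arrays push both calls the same way, so the count of 9 is a description and was not tested. The control calls of Itga6 and Col7a1 were lost without some single arrays, all 6 for Itga6 (adjusted p up to 0.112) and 4 for Col7a1 (up to 0.098). The 3 depolarized 2 h arrays were above all 3 control 30 min arrays for Adamts1, Timp1, Itga7, Itgb1 and Col7a1. They were below them for Col5a3 and Tnc and overlapped them for Adam17, Adamts9, Fn1, Mgp, Itga6 and Lamc1. For Adam22 and Itgb4, lower in depolarized cultures at 2 h, the depolarized arrays were still above the 30 min controls, and for Lama1 they were below. Fn1, for example, was at 10.71 to 11.04 in depolarized 2 h, 10.48 to 10.63 in control 2 h, 10.96 to 11.19 in depolarized 30 min and 10.99 to 11.18 in control 30 min cultures. Between depolarized 2 h and depolarized 30 min cultures, 33 matrix genes differed, 13 higher and 20 lower, or 34.4% against 41.0% of all probe sets (19.2% higher and 21.8% lower), and 39 did not overlap, beside 49.9% of all probe sets.

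**Figure D4:**
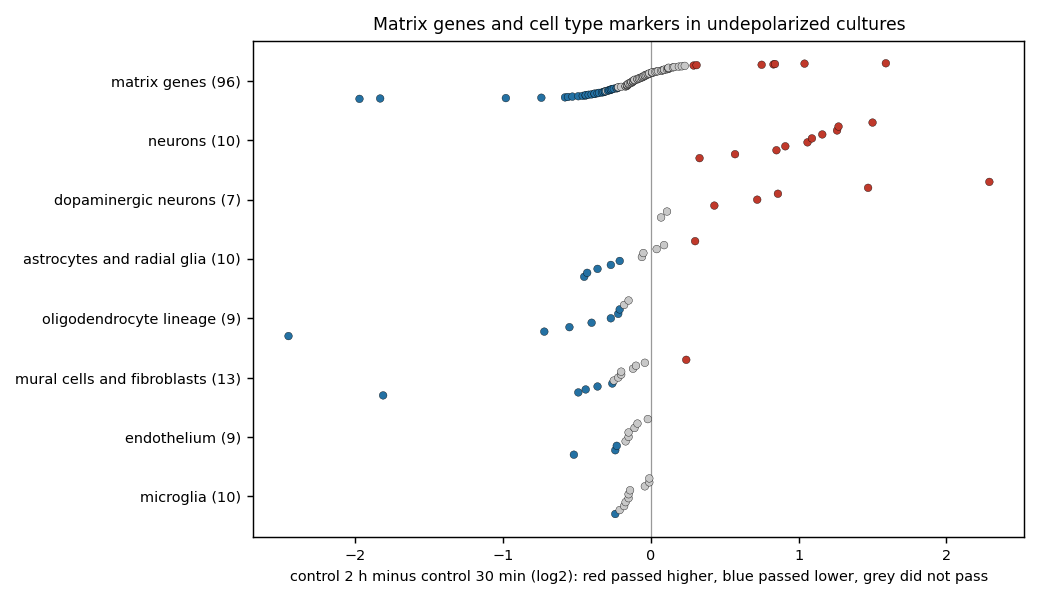
Log2 difference of control 2 h minus control 30 min for the 96 matrix genes (top row) and for marker genes of 7 cell types, 1 point a gene, red called higher, blue called lower and grey not passed. All 10 neuron markers are red, and 29 matrix genes are blue.

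Cell type markers moved with the collection time as well. All 10 neuron markers were higher in 2 h than in 30 min controls, and their mean per array was 11.44 to 11.46 in control 2 h against 10.31 to 10.53 in control 30 min cultures, and 11.40 to 11.48 in depolarized 2 h against 10.55 to 10.68 in depolarized 30 min cultures. Of 9 oligodendrocyte lineage markers 7 were lower (7.68 to 7.81 in control 2 h against 8.29 to 8.31 in control 30 min), of 10 astrocyte and radial glia markers 5 were lower and 1 higher, and of 13 mural cell and fibroblast markers 5 were lower and 1 higher (8.0 to 8.04 against 8.33 to 8.38). The 7 oligodendrocyte lineage markers ran from -2.45 for Olig1 to -0.21 for Mog. Among them Sox10, Cspg4, Mbp and Mog lay low in the range of the array, at mean levels of 5.99 to 7.01. The widest fall among mural cell and fibroblast markers was that of Tagln (-1.81). Of 7 dopaminergic neuron markers 5 were higher (8.23 to 8.41 in control 2 h against 7.41 to 7.50 in control 30 min). Of 9 endothelial markers 3 were lower and of 10 microglial markers 1. Over all probe sets, 18.1% were higher and 17.2% lower in 2 h than in 30 min controls.

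Markers were also called within a collection time. Between depolarized and control cultures, 5 of 68 markers over the 7 cell types were called at 30 min and 10 at 2 h. Both counts are a smaller share than the 24.0% and 25.2% of all probe sets called at these times. At 30 min the neurofilament Nefm (0.65), the dopaminergic factor Nr4a2 (0.87) and the microglial Cd68 (0.38) were higher, and Pdgfra of the oligodendrocyte lineage (-0.58) and Pdgfrb of mural cells (-0.34) were lower. Each was the only marker of its cell type called at 30 min. At 2 h Nefm (0.39), Nefl (0.43), Nr4a2 (0.26), Slc18a2 (0.31), the endothelial Flt1 (0.23) and Foxc1 of mural cells and fibroblasts (0.39) were higher, and Pdgfra (-0.75), Cnp of the oligodendrocyte lineage (-0.28), Pdgfrb (-0.24) and the dopaminergic Aldh1a1 (-0.59) were lower. The remaining markers of each cell type did not pass at 2 h. Mean mural and fibroblast marker levels at 2 h were 8.11 to 8.17 in depolarized against 8.0 to 8.04 in control cultures. Of 10 astrocyte and radial glia markers, limma called 0 at either time, with 0 at an unadjusted p under 0.05 at each. The part of cell composition in the matrix differences was not tested.

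Other genes of the matrix pathways were read in lists of their own, although Itgb1bp1 and Itgb1bp2 of the 96 genes are in the integrin adaptor list. The counts of the lists stand beside the shares of all probe sets called. These shares were 10.8% higher and 13.1% lower at 30 min, and 9.51% higher and 15.7% lower at 2 h. In 2 h against 30 min controls they were 18.1% higher and 17.2% lower. Of 12 genes listed as CCN and other matricellular proteins, 2 were higher at each time and 0 lower. The CCN proteins are secreted proteins that bind integrins. Among them, Ccn1 rose by 1.58 at 30 min (adjusted p = 3.22e-09 by limma) and differed by 0.23 at 2 h, and Ccn2 rose at both times (1.11 and 2.08). Osteopontin (Spp1), which is not a CCN protein, rose by 0.33 at 2 h. Of 25 integrin adaptors and focal adhesion genes, 3 were higher and 4 lower at 30 min, and 7 were higher and 0 lower at 2 h. Itgb1bp2, already counted among the matrix genes, is 1 of the 3 higher at 30 min. The 7 called at 30 min are 28.0% of the list, near the 24.0% of all probe sets. Vasp, an actin polymerization factor, rose by 0.52 and 0.86, and the actin cross-linker Actn1 by 0.85 at 2 h, while Tns3, a tensin, fell by 0.67 at 30 min. In the same list 15 of 25 were lower and 0 higher in 2 h than in 30 min controls, where 17.2% of all probe sets were lower and 18.1% higher. Itgb1bp1, also counted among the matrix genes, is 1 of the 15.

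Of 16 genes listed as syndecans, glypicans and dystroglycan, 1 was higher and 3 lower at 30 min, and 2 were higher and 1 lower at 2 h. Syndecan 4, a focal adhesion proteoglycan, rose by 0.34 and 1.06, and Sdc2 by 0.37 at 2 h, while Cspg5 fell by 0.40 and 0.32. Among 12 hyaluronan and perineuronal net genes, 1 was higher and 2 lower at 30 min, and 2 higher and 3 lower at 2 h. Hyaluronan synthase 2 (Has2) rose by 1.04 and 0.65, and the hyaluronidases Hyal2 (-0.44 and -0.18) and Hyal3 (-0.38 and -0.50) fell at both times. These 3 genes were named for the lowest adjusted p in their list, and a link between them was not tested. The count of the list was near the 24.0% of all probe sets called at 30 min and above the 25.2% at 2 h.

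The plasminogen activators, which generate a matrix-cutting protease, had 1 of 10 members higher and 1 lower at 30 min, and 2 higher at 2 h: urokinase (Plau) rose by 0.26 and 0.48 and its receptor Plaur by 0.30 at 2 h, and Reck, a membrane inhibitor of MMPs, fell by 0.32 at 30 min. Of 13 TGF-beta genes, 1 was higher and 2 lower at 30 min, and 3 were higher at 2 h, with Tgfb1 up by 0.53 at 2 h, the signal transducer Smad3 at -0.68 and then 0.34, and its repressor Skil at 0.61 and 0.35. Collagen processing had 1 of 13 higher at 30 min and 2 at 2 h, with P4ha1, a subunit of collagen prolyl hydroxylase, up by 0.59 and 0.30 and the lysyl hydroxylase Plod2 up by 0.27 at 2 h. Of 17 nidogens, fibulins, fibrillins and elastin genes, 0 passed at 30 min by limma, with 3 at an unadjusted p under 0.05, and Nid2 rose by 0.27 at 2 h. Of 8 small leucine-rich proteoglycans, 0 passed at either time by limma, with 2 at 30 min and 1 at 2 h at an unadjusted p under 0.05. In 2 h against 30 min controls, 5 of these 8 were lower, Ogn (-0.99) and Dcn (-0.49) among them, beside 17.2% of all probe sets lower.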

How the data were processed

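Expression was measured on 12 single-colour Affymetrix rat arrays, 1 per sample. The authors deposited 1 log2 level for each probe set and array, and RMA is named in the submitters' processing notes. Its version and which arrays were normalized together are not given in the sources used here. Of 15923 probe sets, 57 array controls were left out. The array annotation, which can be old, gave 1 symbol for 12783 of the 15866 tested, several for 312 and none for 2771.

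All 12 arrays entered 1 limma fit with a mean per group, in limma 3.58.1 in R 4.3.3 (8 residual degrees of freedom, empirical Bayes, no replicate block). The 5 comparisons had two-sided tests at an adjusted p of 0.05 (Benjamini-Hochberg, 15866 probe sets), and the fit was tested on simulated data. The number of arrays limits precision, and arrays carry no read depth.

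The members, gene lists, naming rule and tests were chosen with earlier results of these data known. Named by rule were, per comparison, up to 8 largest rises and falls called without overlap of the arrays, the 2 brightest and the 2 lowest-p genes of each family, key genes of each family, and up to 3 genes of each list; Itga7, Mmp3, Mmp7, Mmp10, Mmp12, Mmp13, Lama3, Adamtsl4, Itgb1bp1, Col1a2, Col6a2 and the called markers were named after their values were seen. Alternatives were median centring, quantile and loess normalization, leaving out the dimmest 25%, other priors, array weights, averaging the probe sets of each gene, only the arrays compared, a threshold of 0.01, the replicate block, and each array left out.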

Additional observations from a re-analysis of the deposited data

Results flagged for a closer look

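For 8 matrix genes the response to depolarization differed between the collection times by the interaction term of the limma fit, adjusted over all probe sets. The response at 2 h minus that at 30 min, in log2 units, was 1.59 for Mgp, 0.95 for Timp1, 0.83 for Col5a3, 0.56 for Timp3, 0.52 for Mmp11, 0.37 for Adam19, -0.97 for Adam22 and -0.43 for Lama1. For Mgp, Col5a3, Timp1 and Mmp11 the 2 h controls were lower than the 30 min controls (-1.97, -1.83, -0.74 and -0.44), and for Adam22 they were higher (1.59). The response difference is computed from both control groups, so these values are part of it and are given side by side only. The response difference of Lama1 (adjusted p = 0.044) was lost without any of 8 arrays, and that of Adam19 with the mean of its 2 probe sets (0.20, adjusted p = 0.148).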

How the results depend on the processing

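No call of a matrix gene turned direction under any alternative run. Fitting with array weights gave 8 genes lower at 30 min in place of 3, and 11 genes with a higher response at 2 h than at 30 min in place of 6; loess normalization gave 10 for that difference between responses. Averaging the probe sets of each gene gave 5 lower at 2 h in place of 3, adding Itgb3bp and Mmp24. At a threshold of 0.01 there were 8 higher at 2 h in place of 13, 1 with a lower response at 2 h in place of 2, 19 lower in 2 h than in 30 min controls in place of 29, and 13 lower in depolarized 2 h than in depolarized 30 min cultures in place of 20, each among the genes called at 0.05; the stricter threshold itself removes calls. Leaving out 1 array gave 5 to 7 higher and 3 to 9 lower at 30 min, 9 to 14 higher and 2 to 5 lower at 2 h, 6 to 13 higher and 1 to 2 lower responses at 2 h, 5 to 9 higher and 24 to 28 lower between controls, and 10 to 18 higher and 14 to 23 lower between depolarized cultures. The 5 lower genes at 2 h arose without control replicate 6, again with Itgb3bp and Mmp24 added. The cause of these shifts was not tested. Replicate numbers are shared between groups of one collection time, but same-numbered arrays did not deviate together (correlations from -0.322 to 0.236, 2 of 6 pairs over 0.1, and 2 of 6 depolarized arrays closest to their own number). With the replicate block the counts were 6 higher and 3 lower at 30 min, 12 higher and 4 lower at 2 h, and 7 and 2 for the response difference; Adam22 at 30 min (0.0539) and Itga7 at 2 h (0.0612) no longer passed. Between collection times the block could not be fitted, as no number is shared. With 3 arrays a group, small changes in dim genes would be missed.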
